A study of Mus musculus with 6 samples.

Results

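The chemokines and their receptors were followed in the distal colon of mice without TNFR2, a receptor for tumor necrosis factor that is encoded by Tnfrsf1b. Members were taken by symbol: every row whose gene name begins with Ccl, Cxcl, Cx3cl, Xcl, Ccr, Cxcr, Cx3cr or Xcr and a digit. This gave 62 rows for 57 gene symbols, of 22717 named symbols in the deposited table. The 62 rows hold 42 of ligands and 20 of receptors, 3 of them name a second gene beside Ccl27b, and 4 lie on unplaced scaffolds and are listed at 0. All values were measured by mRNA sequencing of male mice of the C57Bl/6 strain aged 8 weeks. One group was wildtype and the other TNFR2-knockout (TNFR2-/-), with 3 mice and 1 library per mouse in each group. No treatment is named for either group. The deleted part of Tnfrsf1b, the source of the mutant line and whether the groups were littermates are not given here, and the deletion is not described as limited to a cell type.

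Chemokines are small secreted proteins that attract leukocytes along a gradient by binding G protein-coupled receptors on their surface. They are classed by the spacing of conserved cysteines as CC, CXC, CX3C and XC ligands, and the receptors carry the class of the ligands they bind. In the gut, some are made constantly by epithelium or stroma and place lymphocytes and plasma cells in the mucosa, while others are induced by cytokines such as tumor necrosis factor in macrophages, endothelium and fibroblasts and draw in monocytes, neutrophils and eosinophils. TNFR2 signals to the transcription factor NF-kB, which acts on many of the induced ligand genes.

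Levels are in FPKM, that is, fragment counts corrected for transcript length and library total, as the authors deposited them. Differences are knockout minus wildtype on the log2(FPKM + 1) scale, which understates changes of low genes, and were fitted with limma across all 14564 named rows with a mean of at least 0.5 FPKM; p-values were adjusted over all of these by Benjamini-Hochberg. Read totals are unknown from FPKM, so no counting interval is given. The series' text states an average of 50M reads per sample. Summed FPKM ran from 655274 to 709593 per library. Tnfrsf1b itself measured 7.49, 8.20 and 8.17 FPKM in wildtype mice and 1.17, 1.12 and 0.924 FPKM in knockout mice, as the labels imply. Skin genes varied widely between libraries: 12 of them summed to between 306 and 855 FPKM in wildtype mice and between 48.4 and 719 FPKM in knockout mice. Skeletal muscle genes were lower in every knockout library: 9 of them summed to between 2238 and 7309 FPKM in wildtype mice and between 123 and 1622 FPKM in knockout mice, an average of 23.8% of wildtype. All 9 did not overlap between genotypes, where 12.5% of all tested rows were lower without overlap. Of the 9, 2 were lower at an unadjusted limma p under 0.05, beside 9.91% of all tested rows, and 0 passed the threshold.

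Of the 62 rows, 36 rows of 35 genes reached the minimum and were tested, 27 of ligands and 9 of receptors. Cxcr5 was the single tested member with a group mean under the minimum. No member passed the threshold in either direction, where 0.288% of all tested rows did (0.103% lower and 0.185% higher). At an unadjusted limma p under 0.05, 12 members were lower and 1 was higher in the knockout, against 9.91% and 6.3% of all tested rows (16.2% in either direction). Means were lower in the knockout for 29 of the 36, or 80.6%, beside 57.4% of all tested rows. The median log2 difference was -0.25 over the 36 members and -0.027 over all tested rows. Without the minimum, 42 of 56 members with any signal (75%) had lower means, with a median of -0.11 on a scale that compresses low genes. Over all rows of that fit 56.9% had lower means, with a median of -0.015. Values of the genotypes did not overlap for 10 members with lower and 2 with higher knockout values, 27.8% and 5.56% of the 36, against 12.5% and 9.3% of all tested rows. When 1 library was left out, 13 to 19 members did not overlap in either direction, 36.1% to 52.8% of them, beside 26.4% to 45.4% of all rows tested in those fits. The shares were nearest each other without wildtype library 2, at 47.2% of members and 45.4% of all rows, and farthest apart without knockout library 1, at 52.8% and 29.7%. Without wildtype library 3 and knockout library 1 together they were 61.1% (22 members) and 35.1%. In the authors' deposited table no member has a q-value under 0.05, where 1.04% of named rows do. The smallest q-value there is 0.415, for Ccl2.

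**Figure D1:**
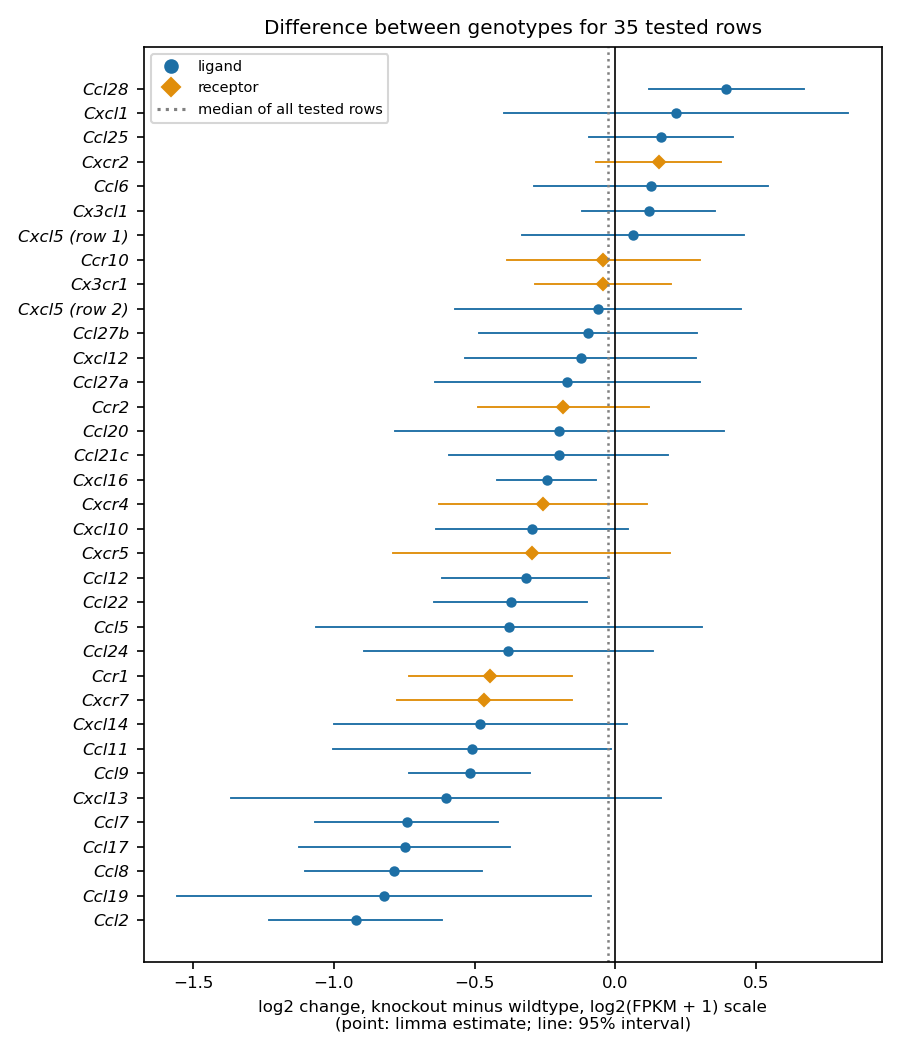
Log2 difference (knockout minus wildtype, log2(FPKM + 1) scale) of 35 tested chemokine and receptor rows with 95% intervals from limma; the dotted line is the median of all 14564 tested rows, -0.027. Of the 35 points, 28 lie below 0, from -0.92 for Ccl2 upwards, and Ccl28 is the highest at 0.39.

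Ligands that attract monocytes and eosinophils included the members with the smallest p-values. Ccl2, the main attractant of monocytes through the receptor Ccr2 (chromosome 11, 82035577 to 82037452, GRCm38.p6), measured 4.0, 3.53 and 4.64 FPKM in wildtype mice and 1.30, 1.99 and 1.73 FPKM in knockout mice. Every knockout value lay below every wildtype value, and the knockout mean was 41.2% of wildtype. The log2 difference of Ccl2 was -0.92 ± 0.13 (SE, n = 3 each; limma, Benjamini-Hochberg adjusted p = 0.0584), just outside the threshold. Without wildtype library 2 Ccl2 passed it (limma, Benjamini-Hochberg adjusted p = 0.0485), and over all alternatives its adjusted p ran from 0.0485 to 0.365.

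Ccl7, a further ligand of Ccr2 that lies next to Ccl2 (82045712 to 82047525), measured 4.24, 3.00 and 3.19 FPKM in wildtype mice and 1.35, 1.94 and 1.72 FPKM in knockout mice. Ccl8, a ligand of Ccr8 in the mouse, measured 11.3, 9.58 and 10.1 FPKM against 5.54, 6.80 and 4.53 FPKM. Ccl9, a ligand of Ccr1, measured 6.62, 5.77 and 6.16 FPKM against 4.28, 4.25 and 3.54 FPKM. In each of these 3 genes the genotypes did not overlap, and knockout means stood at 48.0%, 54.4% and 65.1% of wildtype. Their log2 differences were -0.74 ± 0.14, -0.79 ± 0.13 and -0.52 ± 0.09 (SE, n = 3 each), and none passed the test (limma, Benjamini-Hochberg adjusted p = 0.141, 0.119 and 0.134).

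Other ligands of this class overlapped between genotypes. Ccl11, or eotaxin, which attracts eosinophils through Ccr3, measured 12.6, 7.83 and 11.1 FPKM in wildtype mice and 5.63, 9.05 and 6.54 FPKM in knockout mice. Ccl12, a mouse ligand of Ccr2, measured 2.16, 1.60 and 2.30 FPKM against 1.61, 1.47 and 1.17 FPKM. In both genes wildtype library 2 fell within the knockout range (limma, Benjamini-Hochberg adjusted p = 0.301 and 0.288). Ccl24, an eotaxin made by macrophages, averaged 2.33 ± 0.829 FPKM in wildtype mice and 1.55 ± 0.592 FPKM in knockout mice (SD, n = 3 each).

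Ccl5, a ligand of Ccr1 made by cytotoxic lymphocytes among other cells, measured 4.04, 4.29 and 3.39 FPKM in wildtype mice and 4.90, 2.38 and 1.67 FPKM in knockout mice, with knockout library 1 the highest of all 6. Ccl6, a ligand of Ccr1, was the most highly expressed member and measured 85.2, 89.7 and 81.4 FPKM against 125, 77.7 and 83.5 FPKM. Knockout library 1 stood above the other 5 libraries, which spanned 77.7 to 89.7 FPKM, and the log2 difference of Ccl6 was 0.13, with a 95% interval from -0.29 to 0.54. Without knockout library 1 that difference turned to -0.083. Ccl3 and Ccl4, inflammatory ligands made by activated macrophages and T cells, averaged 0.144 and 0.085 FPKM over the 6 libraries and were not tested, and Ccl1 and Ccl26 are listed at 0.

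Most of these genes sit in 2 groups on chromosome 11. The first holds Ccl2, Ccl7, Ccl11, Ccl12, Ccl8 and Ccl1 within 144 kb (82035577 to 82179812). All 5 of its tested genes had lower means in the knockout, with log2 differences from -0.92 to -0.32, all 5 at an unadjusted p under 0.05, and 3 did not overlap. Over all tested rows 9.91% were lower at that p and 12.5% were lower without overlap. The second, Ccl5, Ccl9, Ccl6, Ccl3 and Ccl4, spans 139 kb (83525778 to 83664683), and the knockout mean was lower than wildtype for Ccl9 and Ccl5 and higher for Ccl6, its 3 tested genes. Whether the groups differ from each other was not tested.

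**Figure D2:**
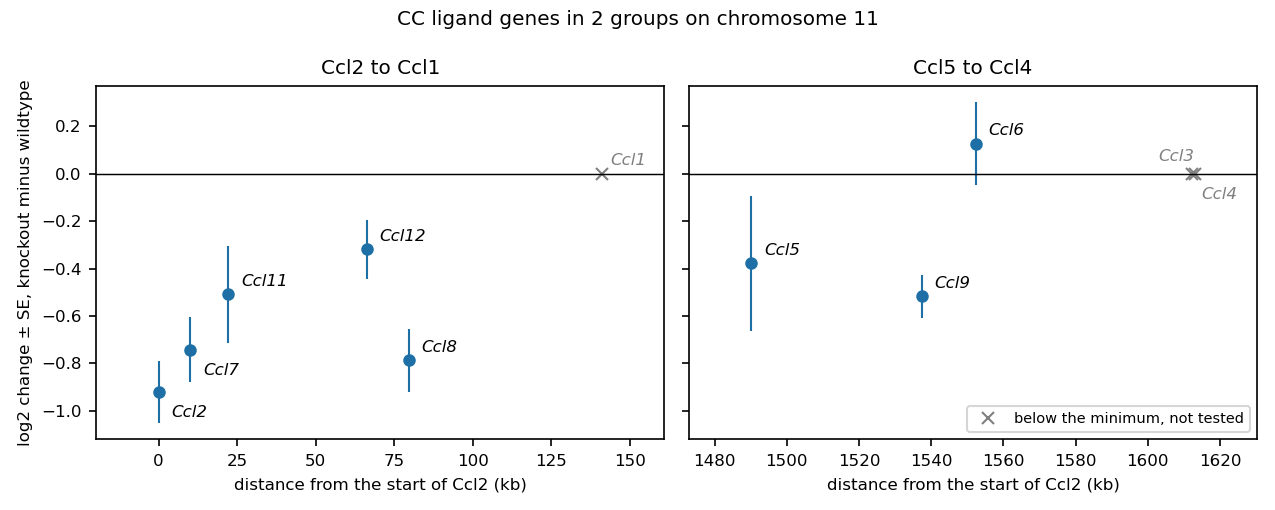
Log2 difference ± SE (limma, 3 libraries per genotype) of CC ligand genes against their distance in kb from the start of Ccl2, for the 2 groups on chromosome 11; crosses at 0 mark genes under the minimum, which have no value. The 5 tested genes from Ccl2 to Ccl8 lie between -0.92 and -0.32, while Ccl6 of the second group lies at 0.13.

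Start regions of chemokine genes can be read beside these values. RefSeq windows of GRCm38.p6 were matched for 42 of the 57 genes, Ccl2 and Ccl7 not among them, and the 250 bases before each start were searched on both strands for the NF-kB consensus and for the AP-1 motif TGANTCA. Matches to the NF-kB consensus were present for 10 of the 42 genes (23.8%) and for 8.23% of all 27025 genes with a window; its matches on the 2 strands can overlap each other. For AP-1 the counts were 6 of 42 (14.3%) and 7.82%. Among these 6, Ccl27a and Ccl27b hold the same match in nearly identical windows, so they are not separate finds. The 4 windows below run 5′ to 3′ on the strand of the gene and end at the base before the start. They show 2 ligands with lower knockout values (Ccl8 and Ccl9) and 2 textbook NF-kB targets whose genotypes overlapped (Cxcl1 and Cxcl10). That choice rests on the values themselves, so the 4 windows are examples and not a comparison. Capitals mark every NF-kB consensus match.
Ccl8, chr11:82114935-82115184, plus strand: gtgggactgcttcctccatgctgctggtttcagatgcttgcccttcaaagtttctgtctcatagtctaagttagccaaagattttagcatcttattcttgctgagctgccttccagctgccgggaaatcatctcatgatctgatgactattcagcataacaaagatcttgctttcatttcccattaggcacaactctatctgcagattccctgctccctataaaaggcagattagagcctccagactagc
Ccl9, chr11:83578637-83578886, minus strand: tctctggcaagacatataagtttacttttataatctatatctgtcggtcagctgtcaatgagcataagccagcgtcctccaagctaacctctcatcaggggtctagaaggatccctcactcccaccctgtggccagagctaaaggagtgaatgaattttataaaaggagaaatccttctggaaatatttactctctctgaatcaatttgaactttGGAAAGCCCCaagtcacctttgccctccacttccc
Cxcl1, chr5:90890995-90891244, plus strand: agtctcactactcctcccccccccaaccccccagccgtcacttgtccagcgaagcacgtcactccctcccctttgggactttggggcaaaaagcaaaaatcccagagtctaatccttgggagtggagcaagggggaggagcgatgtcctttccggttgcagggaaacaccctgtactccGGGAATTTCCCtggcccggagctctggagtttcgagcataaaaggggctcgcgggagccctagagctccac
Cxcl10, chr5:92348890-92349139, minus strand: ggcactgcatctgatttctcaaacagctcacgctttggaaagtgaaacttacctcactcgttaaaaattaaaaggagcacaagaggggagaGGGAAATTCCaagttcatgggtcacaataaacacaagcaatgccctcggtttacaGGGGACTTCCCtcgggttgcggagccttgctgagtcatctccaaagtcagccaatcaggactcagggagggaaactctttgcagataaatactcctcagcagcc
The Ccl8 window holds no match to either motif, and Ccl9 holds 1 of each. Cxcl1 carries a run of 11 bases in which matches on the 2 strands overlap, and Cxcl10 holds matches at 2 places and 1 AP-1 match. Among the tested members 5 of 25 with a window carry an NF-kB consensus match: Ccl9, Ccl20, Ccr1, Cxcl1 and Cxcl10. Ccl9 and Ccr1 were lower in the knockout without overlap, while Ccl20, Cxcl1 and Cxcl10 overlapped between genotypes. Whether matches go with the differences was not tested. A match here is a description of the sequence, and binding was not measured.

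Ligands that attract neutrophils through Cxcr2 did not shift in 1 direction. Cxcl5, an epithelial ligand, fills 2 rows at 1 position, which averaged 3.05 ± 0.572 and 1.33 ± 0.393 FPKM in wildtype mice and 3.25 ± 0.774 and 1.27 ± 0.625 FPKM in knockout mice (SD, n = 3 each). Cxcl1 measured 0.755, 0.331 and 1.49 FPKM in wildtype mice and 1.61, 0.686 and 1.06 FPKM in knockout mice. The spread within each genotype was wider than the difference between them (limma, Benjamini-Hochberg adjusted p = 0.690). Cxcl2, Cxcl3 and Cxcl15 averaged between 0.014 and 0.331 FPKM over the 6 libraries and were not tested. Among the interferon-inducible ligands of Cxcr3, which draw in activated T cells, Cxcl10 alone was tested. It measured 1.15, 1.67 and 1.44 FPKM in wildtype mice and 1.36, 0.793 and 0.786 FPKM in knockout mice, with knockout library 1 inside the wildtype range (limma, Benjamini-Hochberg adjusted p = 0.357). Cxcl9 and Cxcl11 averaged 0.149 and 0.0356 FPKM.

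Ccl17 and Ccl22, the ligands of Ccr4 that are made by dendritic cells and macrophages, both had lower values in all 3 knockout libraries. Ccl17 measured 5.76, 4.96 and 5.70 FPKM in wildtype mice and 2.34, 3.94 and 2.44 FPKM in knockout mice, and its knockout mean was 53.2% of wildtype. Ccl22 measured 1.17, 1.00 and 1.38 FPKM against 0.749, 0.829 and 0.493 FPKM. The log2 differences were -0.75 ± 0.16 for Ccl17 and -0.37 ± 0.12 for Ccl22 (SE, n = 3 each), neither past the threshold (limma, Benjamini-Hochberg adjusted p = 0.172 and 0.246). Without knockout library 2, the nearest to wildtype, Ccl17 passed (limma, Benjamini-Hochberg adjusted p = 0.0398). The 2 genes lie on chromosome 8 on either side of Cx3cl1, whose values overlapped between genotypes.

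Ccl28 had the highest knockout mean relative to wildtype among the tested members. It is an epithelial ligand of Ccr10 and Ccr3 that attracts IgA plasma cells to the colon (chromosome 13, 119623819 to 119654359). Ccl28 measured 25.9, 32.4 and 30.1 FPKM in wildtype mice and 42.8, 34.0 and 40.4 FPKM in knockout mice. The groups did not overlap, although knockout library 2 stood only just above wildtype library 2. Its knockout mean was 1.33-fold the wildtype mean, a log2 difference of 0.39 ± 0.12 (SE, n = 3 each) that did not pass the threshold (limma, Benjamini-Hochberg adjusted p = 0.234). Cx3cl1, or fractalkine, a membrane-bound ligand of epithelium and endothelium, measured 34.3, 42.9 and 38.7 FPKM against 45.0, 39.2 and 41.4 FPKM. Its genotypes overlapped, with a 95% interval of the log2 difference from -0.12 to 0.35. Ccl25, which guides lymphocytes bearing Ccr9 to the small intestine, averaged 1.73 ± 0.305 and 2.05 ± 0.148 FPKM (SD, n = 3 each) and Ccl20, the epithelial ligand of Ccr6, 2.14 ± 0.856 and 1.70 ± 0.565 FPKM. Every knockout value of Ccl25 lay above every wildtype value, as for 9.3% of all tested rows (limma, Benjamini-Hochberg adjusted p = 0.474). Ccl20 overlapped between genotypes. Summed markers of colon epithelium overlapped as well, with 6283 to 8983 FPKM in wildtype mice and 6864 to 8897 FPKM in knockout mice over 9 genes.

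Ligands of lymphoid tissue varied widely within each genotype. Cxcl13, which brings B cells bearing Cxcr5 into follicles, measured 9.44, 6.53 and 5.72 FPKM in wildtype mice and 4.76, 6.49 and 2.50 FPKM in knockout mice. Ccl19, a ligand of Ccr7 made by stroma of lymphoid tissue, measured 5.96, 3.39 and 2.34 FPKM against 2.39, 1.65 and 1.06 FPKM. Knockout library 3 was the lowest in both genes and wildtype library 1 the highest. Neither passed the test (limma, Benjamini-Hochberg adjusted p = 0.387 and 0.282). Ccl21c, a ligand of Ccr7 with near-identical copies in the genome whose row RefSeq names Gm10591, measured 11.6, 8.16 and 11.9 FPKM against 9.87, 9.77 and 7.35 FPKM. It is uncertain for that reason, and its genotypes overlapped. Summed B cell markers (9 genes) ran from 7.25 to 19.7 FPKM in wildtype mice and from 3.27 to 18.1 FPKM in knockout mice, with wildtype library 3 and knockout libraries 2 and 3 the lowest, and their part in these values was not tested.

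Cxcl12, Cxcl14 and Cxcl16 are ligands commonly expressed in uninflamed tissue. Cxcl12, the stromal ligand of Cxcr4, measured 48.4, 37.0 and 47.1 FPKM in wildtype mice and 42.3, 48.3 and 31.6 FPKM in knockout mice, with overlapping values. Cxcl14 measured 20.3, 11.7 and 18.2 FPKM against 9.85, 13.9 and 10.8 FPKM, and wildtype library 2 lay within the knockout range. Cxcl16, a transmembrane ligand of Cxcr6, measured 10.3, 9.82 and 10.1 FPKM against 9.02, 8.38 and 7.69 FPKM. These did not overlap, and the difference was small, at 83.0% of the wildtype mean (log2 difference -0.24 ± 0.07, SE, n = 3 each; limma, Benjamini-Hochberg adjusted p = 0.239). Ccl27a, a ligand of Ccr10 made by skin keratinocytes, measured 7.31, 4.22 and 5.73 FPKM in wildtype mice and 3.90, 4.96 and 6.02 FPKM in knockout mice. Knockout library 1 was lowest in Ccl27a and in the summed skin genes, and wildtype library 2 was lower than the other wildtype libraries in both. The Ccl27b row averaged 0.734 FPKM. Sequences before the starts of Ccl27a and Ccl27b are nearly identical, and whether reads of these genes can be told apart was not tested. Cxcl17 and Xcl1, at 0.121 and 0.292 FPKM, were under the minimum.

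**Figure D3:**
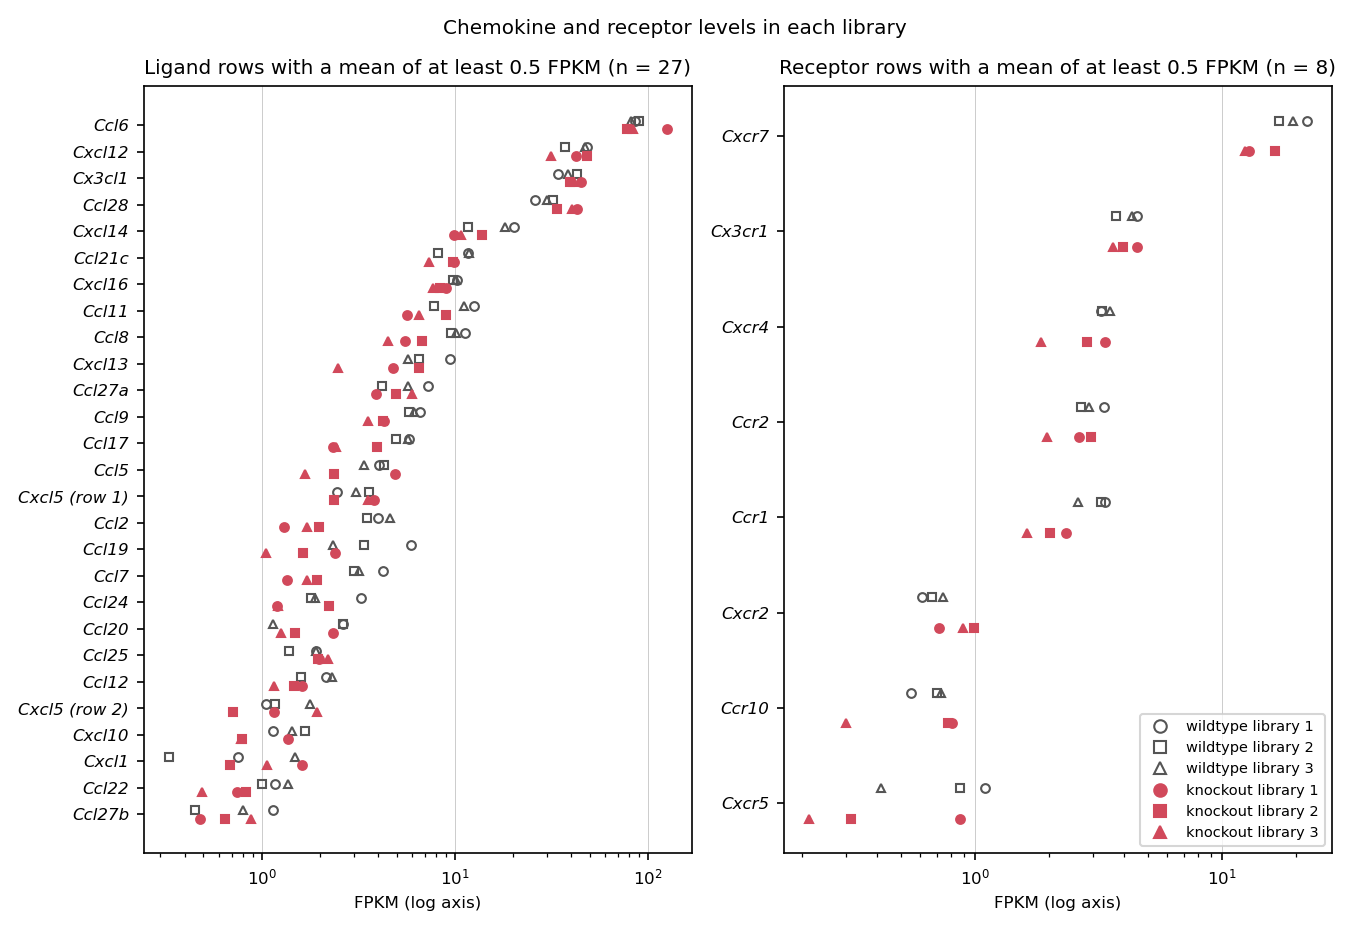
FPKM (log axis) of 27 ligand and 8 receptor rows tested, 1 symbol per library, wildtype open and knockout filled, ordered by mean. Ligands span from 0.734 FPKM on average for Ccl27b to 90.5 for Ccl6, while among receptors only Cxcr7 exceeds 10 FPKM on average.

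Receptors were expressed at lower levels than the leading ligands. Cxcr7, an atypical receptor that takes up Cxcl12 without G protein signalling (Ackr3 in RefSeq, chromosome 1, 90203980 to 90215724), was the highest, with 22.1, 17.0 and 19.4 FPKM in wildtype mice and 12.9, 16.4 and 12.4 FPKM in knockout mice. Its genotypes did not overlap, although knockout library 2 lay close to wildtype library 2. The knockout mean of Cxcr7 was 71.1% of wildtype, a log2 difference of -0.47 ± 0.13 (SE, n = 3 each) that missed the threshold (limma, Benjamini-Hochberg adjusted p = 0.225).

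Cx3cr1, the fractalkine receptor of resident macrophages, followed with 4.51, 3.72 and 4.32 FPKM in wildtype mice and 4.53, 3.96 and 3.60 FPKM in knockout mice. Cxcr4, the signalling receptor of Cxcl12, measured 3.25, 3.26 and 3.50 FPKM against 3.37, 2.84 and 1.85 FPKM. Ccr2, the monocyte receptor of Ccl2 and Ccl7, measured 3.33, 2.69 and 2.88 FPKM against 2.64, 2.93 and 1.95 FPKM. In all 3 genes the genotypes overlapped, and levels of Cxcr4, Ccr2 and Ccr1 overlapped with each other over the 6 libraries. The 95% intervals of the log2 difference were -0.28 to 0.20 for Cx3cr1, -0.63 to 0.11 for Cxcr4 and -0.49 to 0.12 for Ccr2. Ccl2 and its receptor thus stood at 41.2% and 84.5% of wildtype; their difference was not tested.

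Ccr1, a receptor of Ccl5, Ccl6, Ccl7 and Ccl9 on myeloid cells, measured 3.35, 3.23 and 2.60 FPKM in wildtype mice and 2.33, 2.00 and 1.63 FPKM in knockout mice. The groups did not overlap, at 65.0% of the wildtype mean (log2 difference -0.44 ± 0.12, SE, n = 3 each; limma, Benjamini-Hochberg adjusted p = 0.222). The neutrophil receptor Cxcr2 averaged 0.673 ± 0.0659 FPKM in wildtype mice and 0.865 ± 0.140 FPKM in knockout mice (SD, n = 3 each), and the B cell receptor of Cxcl13, Cxcr5, 0.792 ± 0.346 and 0.465 ± 0.355 FPKM, and both overlapped between genotypes. Ccr10 measured 0.549, 0.698 and 0.728 FPKM in wildtype mice and 0.803, 0.774 and 0.301 FPKM in knockout mice. It overlapped between genotypes where its ligand Ccl28 did not.

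Receptors of several tested ligands were under the minimum. Ccr4, the receptor of Ccl17 and Ccl22 on T cells, measured 0.0694, 0.1005 and 0.0992 FPKM in wildtype mice and 0.0845, 0.122 and 0.0913 FPKM in knockout mice. Ccr8, the receptor of Ccl8, measured 0.0408, 0.0398 and 0.0554 FPKM against 0.0330, 0.231 and 0 FPKM. Ccr3, the eosinophil receptor of Ccl11, measured 0.0253, 0.0124 and 0.0172 FPKM against 0, 0 and 0.0344 FPKM. These 3 overlapped between genotypes, with the highest Ccr8 value in knockout library 2 and the highest Ccr3 value in knockout library 3. Ccr7, which guides cells to lymph nodes, measured 0.603, 0.503 and 0.283 FPKM against 0.636, 0.376 and 0.308 FPKM, and Cxcr6, the receptor of Cxcl16, 0.666, 0.460 and 0.343 FPKM against 0.237, 0.552 and 0.229 FPKM. Both overlapped as well. The other 6 untested receptors, Ccr6, Ccr9, Ccr1l1, Cxcr3, Xcr1 and Cxcr1, averaged between 0.0113 and 0.382 FPKM. A listed 0 in this table may be a failed estimate, so no absence is stated for any member. Reads of genes that overlap in the genome, such as Cxcl10 and Art3, Cxcl16 and Zmynd15, Ccl27a and Il11ra1, Ccr10 and Cntnap1, and Cxcr5 and Bcl9l, cannot be told apart without strand, which no label or header states. Other tested members that overlap a RefSeq gene are Ccl5, Ccl6, Ccl19, Ccl21c, Ccl25, Ccl27b, Cx3cl1 and Cx3cr1. The untested Ccl3 and Ccl4 overlap each other.

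Genes that handle or transmit the same signals were read from 2 lists, to be set beside all tested rows, of which 57.4% had lower means, 9.91% were lower at an unadjusted p under 0.05 and 0.288% passed the threshold. In the list of atypical receptors and chemokines with other names, all 8 tested genes had lower means in the knockout, 0 passed the threshold in limma and 3 had an unadjusted p under 0.05. The median log2 difference was -0.28, beside -0.027 over all tested rows. Pf4, the platelet CXC ligand, averaged 68.7 ± 3.59 FPKM in wildtype mice and 52.8 ± 6.88 FPKM in knockout mice, and Cmklr1, the chemerin receptor of myeloid cells, 4.15 ± 0.335 and 3.22 ± 0.478 FPKM (SD, n = 3 each). Among genes of chemokine signalling and handling, such as G protein subunits, arrestins and receptor kinases, 15 of 20 tested had lower means, 0 passed in limma and 4 were lower at an unadjusted p under 0.05. Prex1, a Rac activator, averaged 4.16 ± 0.454 and 3.10 ± 0.312 FPKM, and Gnai2, the inhibitory G protein subunit used by chemokine receptors, 185 ± 5.99 and 161 ± 4.86 FPKM (SD, n = 3 each).

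Markers of the cells that make or carry these proteins also differed between libraries. In whole tissue, fewer cells of a type and less RNA per cell cannot be told apart. Macrophage and monocyte markers (13 genes in 14 rows, none at 0) summed to between 572 and 618 FPKM in wildtype mice and between 370 and 504 FPKM in knockout mice, without overlap. Of the 14 rows 12 had lower means in the knockout, and 0 passed the threshold in limma. At an unadjusted limma p under 0.05, 9 rows were lower and 0 higher, beside 9.91% and 6.3% of all tested rows. Their median log2 difference was -0.38, beside -0.027 over all tested rows and -0.25 over the 36 chemokine members. Endothelial markers (9 genes, none at 0) summed to between 71.8 and 92.9 FPKM in wildtype mice and between 50.2 and 69.6 FPKM in knockout mice, and fibroblast markers (8 genes, none at 0) to between 1150 and 1570 and between 903 and 1176 FPKM. At that unadjusted p, 5 of 8 tested endothelial and 7 of 8 fibroblast genes were lower and 0 higher. Their median log2 differences were -0.39 and -0.44. These 3 sums averaged 76.8%, 72.0% and 72.2% of wildtype, and the skeletal muscle sum 23.8%, beside 41.2%, 48.0%, 54.4% and 65.1% for Ccl2, Ccl7, Ccl8 and Ccl9. Those ligands had the smallest p-values of all members and do not stand for the 36, whose median log2 difference was -0.25. Dendritic cell markers (6 genes, none at 0) summed to between 6.06 and 7.90 FPKM and between 4.62 and 6.86 FPKM, and T cell markers (10 genes, none at 0) to between 6.09 and 8.37 and between 4.18 and 6.30 FPKM. Plasma cell markers (4 genes, none at 0), cells that Ccl28 attracts, summed to between 94.2 and 105 FPKM in wildtype mice and between 73.8 and 87.4 FPKM in knockout mice. Of 8 neutrophil and eosinophil markers, Elane and Epx are listed at 0 in all 6 libraries. The 8 summed to between 6.12 and 14.5 FPKM in wildtype mice and between 2.81 and 19.0 FPKM in knockout mice. That sum averaged 113% of wildtype. Only 2 of the 8 were tested, and both had lower knockout means. The part of these markers, skeletal muscle included, in the chemokine values was not tested.

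**Figure D4:**
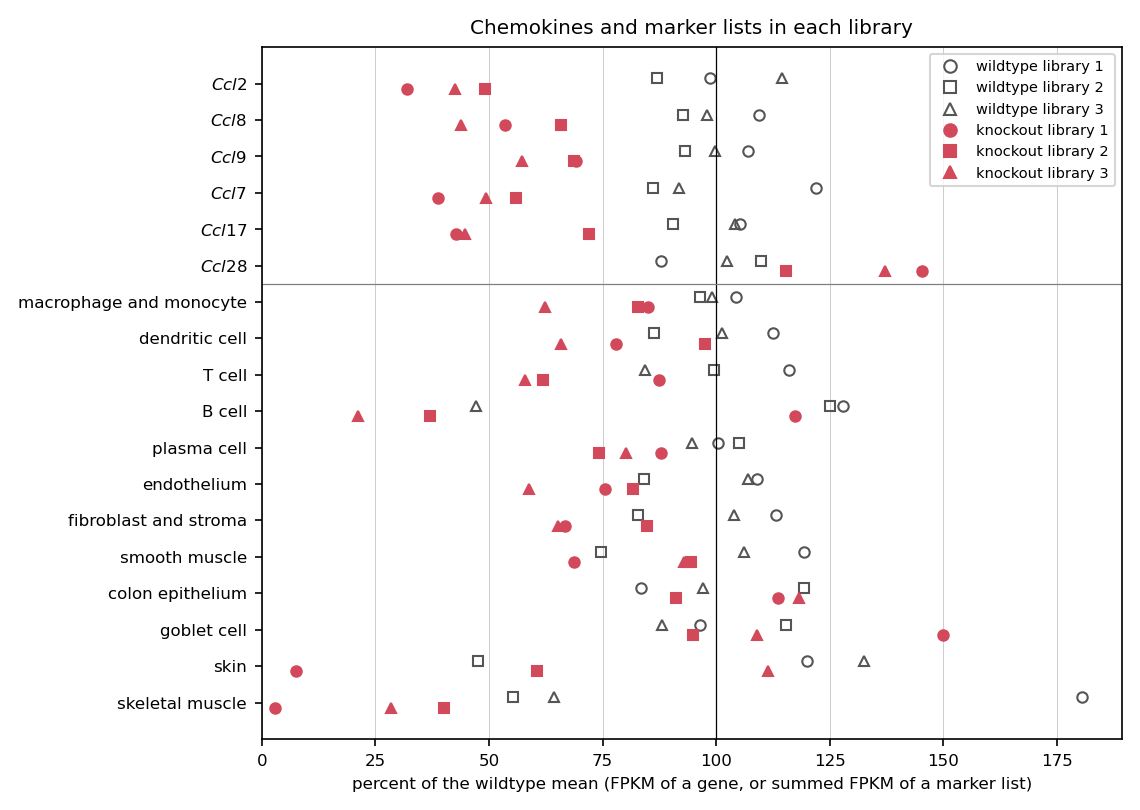
Each library's value as percent of the wildtype mean, for the 6 ligands with the smallest p-values (FPKM) and for the summed FPKM of 12 marker lists, wildtype open and knockout filled. Ccl2 averages 41.2% of wildtype in the knockout, and the macrophage sum 76.8%; the skeletal muscle sum averages 23.8%, and skin and skeletal muscle sums are spread most widely.

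For the 29 members picked for lower knockout means, a knockout library is mostly the lowest by construction. Knockout library 3 was the lowest of the 6 libraries for 18 of them, knockout library 1 for 7 and knockout library 2 for 2. Knockout library 3 also had the lowest sums of macrophage, dendritic cell, T cell, B cell, endothelial and fibroblast markers. The plasma cell, smooth muscle, skeletal muscle and skin sums were lowest in other knockout libraries. Without knockout library 3, 26 of 36 members and 59.5% of all rows tested had lower means, with median log2 differences of -0.20 and -0.039. Wildtype library 1 was the highest of the 6 for 18 of the 36 members. It had the highest sums of macrophage, dendritic cell, T cell, B cell, endothelial, fibroblast, smooth muscle and skeletal muscle markers. The plasma cell, skin and epithelial sums were highest in other wildtype libraries. Without wildtype library 1, 28 of 36 members and 59.8% of all rows tested had lower means, with medians of -0.18 and -0.034. How often knockout library 3 was lowest and wildtype library 1 highest over all tested rows was not counted. The libraries at the ends of the skin sum were knockout library 1 and wildtype library 3. Without these 2 libraries 30 of 36 members had lower means, with a median log2 difference of -0.31, and with the skin level as a covariate 28 of 36, with a median of -0.30. Over all tested rows 60.5% and 59.9% had lower means in these 2 fits, with medians of -0.038 and -0.034. No member passed the threshold in either of these fits.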

How the data were processed

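Members and gene lists were chosen with earlier results of these data known. The authors deposited 1 FPKM value per gene and library, per the file headers. Per the labels' series text they aligned paired-end reads of 50 bp with Tophat2 and Bowtie2, assembled with Cufflinks and tested with Cuffdiff 2; the submitters' processing notes name mm10 as the build. Which program versions, annotation and library scaling were used is not given in the sources read. P-values, q-values and log2 fold changes of the authors' deposited table are named as such.

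The test was limma 3.58.1 under R 4.3.3 on log2(FPKM + 1), with trended and robust variance moderation and no covariate; genes were called at an adjusted p under 0.05. One tested member is counted but not reported here by name. Rows without a gene name (6.13% of rows, 17.7% of summed FPKM) were left out. On simulated libraries for this comparison (14564 genes, 200 changed, each with a mean of at least 2 FPKM), limma recovered 41.5%, 85% and 98% of changes of 0.5, 1 and 2 on the log2 scale. Each simulation used 1 size of change and independent noise, so recovery in these data may be lower. Members averaging under 2 FPKM are not covered by these shares. Each library's values are given for the 10 members with the smallest p, the 8 highest ligands, the 5 highest receptors and their partners; further members were given in full after their values were seen (Ccl19, Ccl27a, Cxcl1, Cxcl10 and Cxcl13). Positions are from RefSeq on GRCm38.p6, the same assembly as mm10. Python 3.11.15 with matplotlib 3.10.9, numpy 2.4.6 and pandas 2.3.3 made tables and figures. Other pseudocounts, minima, scalings, variance models and library sets were tried.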

Additional observations from a re-analysis of the deposited data

How the results depend on the processing

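No member was called lower or higher under the 10 alternatives besides leaving out 1 library, which gave 0 to 1 members called lower (Ccl2 without wildtype library 2, Ccl17 without knockout library 2) and 0 called higher. Without the minimum on FPKM the median log2 difference was -0.11 over members and -0.015 over all rows. Over all genes, 25 were called without small RNA genes, 26 with the skin level as a covariate and 21 to 74 when 1 library was left out. Members without overlap numbered 22 without wildtype library 3 and knockout library 1, and 13 to 19 when 1 library was left out, beside 26.4% to 45.4% of all rows; fewer libraries overlap less often by construction. Same-numbered libraries did not deviate together (r = -0.37, -0.34 and 0.21 across genes for numbers 1, 2 and 3). Differently numbered ones ran from r = -0.24 to 0.47. With deviations taken from means of 3 libraries, these values cannot decide whether the numbers pair the mice. With the replicate number as a block, 24 genes and 0 members were called.

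Of 350 values of 22 named members under alternatives, 341 kept direction and call, 2 passed the threshold and 7 turned direction. Ccl6 turned to -0.087 with the skin covariate and -0.12 without wildtype library 3 and knockout library 1. When 1 library was left out, Ccl6 ran from -0.083 to 0.26, Cxcl12 from -0.25 to 0.044, Ccr10 from -0.12 to 0.11 and Cx3cr1 from -0.11 to 0.019. None of the 4 was called in any fit, and the cause was not tested. Depth is unknown from FPKM, and members under 1 FPKM are the least precise.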
